A study of Mus musculus with 8 samples.

Results

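The SLC25 genes encode the carriers of the inner mitochondrial membrane, and they were taken from the count table by symbol, as every gene whose name runs Slc25a followed by a number. The rule found 47 of the 18395 genes in the table, of which 46 code for a protein and 1, Slc25a5-ps, is a pseudogene. The uncoupling proteins Ucp1, Ucp2 and Ucp3 are relatives in sequence but carry other symbols, and they were handled as partners. Kindlin-2, the product of Fermt2, is an adaptor that switches integrins on, and the study asked how its loss from brown adipocytes affects tolerance of cold. Polyadenylated RNA of 8 adipose tissue samples of Mus musculus was sequenced, 4 labelled WT and 4 labelled KO. KO stands for deletion of Kindlin-2 in brown adipocytes, WT is the control group, and all 8 had been kept at 4 °C for 6 h, so no sample at room temperature was part of the comparison. The fat depot, the promoter of the deleting enzyme, the alleles that the WT animals carry and the animals' age are not stated by the labels. The labels number the samples but do not tie each to its own animal, so p-values here describe only how far these samples spread. RNA was drawn from whole tissue, in which fewer cells of a type and less RNA per cell cannot be told apart.

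Mitochondrial carriers are small membrane proteins built from repeats of a similar fold, and most exchange a metabolite of the cytosol for one of the matrix. Through them pass the ADP, ATP and phosphate of oxidative phosphorylation, the acylcarnitines that feed fatty acid oxidation, the amino acids and dicarboxylates of the shuttles, and the coenzymes that matrix enzymes need. In brown fat, where Ucp1 lets protons return to the matrix and so turns fuel oxidation into heat, fatty acids and branched-chain amino acids are fuels that must cross this membrane first.

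Libraries held between 33672272 and 43253559 counts in WT and between 35734373 and 40927141 in KO. Fermt2 itself lay at 239, 235, 244 and 201 CPM (counts scaled to a common library size by TMM) in WT and at 192, 132, 173 and 174 CPM in KO (log2 fold change -0.45 ± 0.14 SE, edgeR adjusted p = 0.134). Every KO library lay below every WT library, and transcript remained in all of them. Which cells of the whole tissue held the remaining transcript was not tested. All 10 brown adipocyte markers were present in the table, and their summed level was 8708 to 10697 CPM in WT and 5152 to 8471 CPM in KO. The 10 general adipocyte markers summed to 20039 to 23766 CPM in WT and 16319 to 20706 CPM in KO, and the 12 endothelial markers to 1516 to 2054 CPM in WT and 1813 to 3192 CPM in KO. Of the 12 endothelial markers 11 had higher estimates in KO, at a median log2 fold change of 0.62. At an unadjusted edgeR p under 0.05, 8 were higher (10.4% of all genes), and 2 were higher without overlap (5.8%). All 9 T and NK cell markers also had higher estimates in KO, 6 at that p, as had all 8 macrophage markers, 0 at that p. WT replicate 3 stood apart by skeletal muscle transcripts: the 15 muscle markers summed to 49294 CPM there and to between 36.3 and 373 CPM elsewhere. KO replicate 2 had the highest sum of the 9 T and NK cell markers, 178 CPM against at most 38.9 CPM elsewhere, and of the 8 macrophage markers, 388 CPM. Counts below were therefore also taken over 6 libraries without these 2, a comparison chosen after seeing the data. The 6-library value is not printed for every count.

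Promoters of 5 carriers are shown because the results turn on these genes: the 3 carriers that fell in the 6 libraries (Slc25a16, Slc25a20 and Slc25a23) and the 2 with the most negative fold changes among the carriers whose WT and KO libraries did not overlap (Slc25a25 and Slc25a34). Each runs 5′ to 3′ on the gene's own strand from 250 bases before to 50 bases after a RefSeq transcript start in GRCm38.p6, an older build than the one named for the counts. RefSeq windows were matched for 35 of the 47 members; of the genes shown, Slc25a25 has 3 windows and Slc25a23 has 2, with 1 of each shown. Capitals mark a motif. TGACGTCA is the cyclic AMP response element, the site of CREB, a factor activated when cold-released noradrenaline raises cyclic AMP. TGACCTT is the reverse complement of AAGGTCA, the core site of the estrogen-related receptors, nuclear receptors that act on mitochondrial genes.
Slc25a25, chr2:32424017-32424316, minus strand: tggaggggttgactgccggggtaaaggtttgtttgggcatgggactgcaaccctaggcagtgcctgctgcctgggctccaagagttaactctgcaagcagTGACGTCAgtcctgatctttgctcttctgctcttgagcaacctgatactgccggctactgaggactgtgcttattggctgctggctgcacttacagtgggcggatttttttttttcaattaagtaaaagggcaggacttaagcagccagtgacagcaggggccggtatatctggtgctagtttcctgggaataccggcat
Slc25a34, chr4:141623785-141624084, minus strand: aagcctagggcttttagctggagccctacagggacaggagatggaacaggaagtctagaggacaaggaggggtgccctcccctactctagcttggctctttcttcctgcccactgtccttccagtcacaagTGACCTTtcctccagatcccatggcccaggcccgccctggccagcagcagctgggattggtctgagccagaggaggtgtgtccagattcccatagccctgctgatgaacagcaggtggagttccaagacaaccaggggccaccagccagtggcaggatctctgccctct
Slc25a16, chr10:62920383-62920682, plus strand: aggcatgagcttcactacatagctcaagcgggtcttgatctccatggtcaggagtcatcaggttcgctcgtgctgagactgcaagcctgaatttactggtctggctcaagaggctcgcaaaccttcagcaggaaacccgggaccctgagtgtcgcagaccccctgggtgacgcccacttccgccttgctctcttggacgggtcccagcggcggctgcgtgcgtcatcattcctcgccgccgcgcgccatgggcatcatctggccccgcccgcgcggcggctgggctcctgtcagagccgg
Slc25a20, chr9:108661886-108662185, plus strand: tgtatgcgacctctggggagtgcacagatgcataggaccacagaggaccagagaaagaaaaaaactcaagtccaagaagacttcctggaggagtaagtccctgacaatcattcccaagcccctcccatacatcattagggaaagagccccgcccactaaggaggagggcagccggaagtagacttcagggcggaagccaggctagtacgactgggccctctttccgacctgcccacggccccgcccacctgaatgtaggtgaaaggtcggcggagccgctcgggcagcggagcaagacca
Slc25a23, chr17:57059814-57060113, minus strand: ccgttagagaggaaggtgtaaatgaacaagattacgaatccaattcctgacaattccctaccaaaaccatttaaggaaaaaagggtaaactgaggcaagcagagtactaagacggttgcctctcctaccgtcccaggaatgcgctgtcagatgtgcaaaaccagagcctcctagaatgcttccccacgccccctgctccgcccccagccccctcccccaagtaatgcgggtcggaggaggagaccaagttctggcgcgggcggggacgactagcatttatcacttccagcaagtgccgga
Both strands of all 45 member windows were searched. TGACGTCA was found in 2 of them, the Slc25a25 window above, where it begins 150 bases before the start, and a window of Slc25a36; 1.79% of all 32851 RefSeq windows of this length hold it. AAGGTCA was found in 1 of the 45, that of Slc25a34, 119 bases before the start, against 4.72% of all windows. The extended core site TCAAGGTCA, which contains AAGGTCA and is held by 0.423% of all windows, had no match in the 45 windows. A match is a stretch of letters and not a measured binding site.

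Levels within the family spanned more than 3 orders of magnitude. They were expressed as CPM per kb of exon, which allows genes of different length to be compared approximately. The length was that of the merged exons of all annotated transcripts of a gene, and which transcripts were present was not tested. On this measure Slc25a4 had the highest mean over the 8 libraries, 257, followed by Slc25a5 at 214. Both encode ADP/ATP carriers, which swap matrix ATP for cytosolic ADP. The order of these 2 rests on a single library. Slc25a4 was at 172, 186, 915 and 183 CPM per kb in the WT libraries and at 124, 168, 165 and 139.8 in the KO libraries. Slc25a5 was at 224, 273, 166 and 248 CPM per kb in WT and at 138, 239.5, 227 and 193 in KO. On this measure Slc25a5 was the higher of the 2 in every library except WT replicate 3. This depends on the exon lengths, 1646 bases for Slc25a5 and 2353 for Slc25a4. In those other libraries the ratio of Slc25a4 to Slc25a5 in plain counts was 0.973 to 1.29. Next came Slc25a39 (132 CPM per kb), a glutathione carrier, Slc25a1 (122), the citrate carrier, and Slc25a20 (115), the carnitine-acylcarnitine carrier. Slc25a51, Slc25a3, Slc25a11 and Slc25a42 lay between 72.1 and 85.8 CPM per kb, and Slc25a17 followed at 36.9. The ranges over libraries of neighbours among the carriers named here overlapped. The lowest of the 42 carriers with enough reads to test was Slc25a13 at 0.142 CPM per kb.

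**Figure D1:**
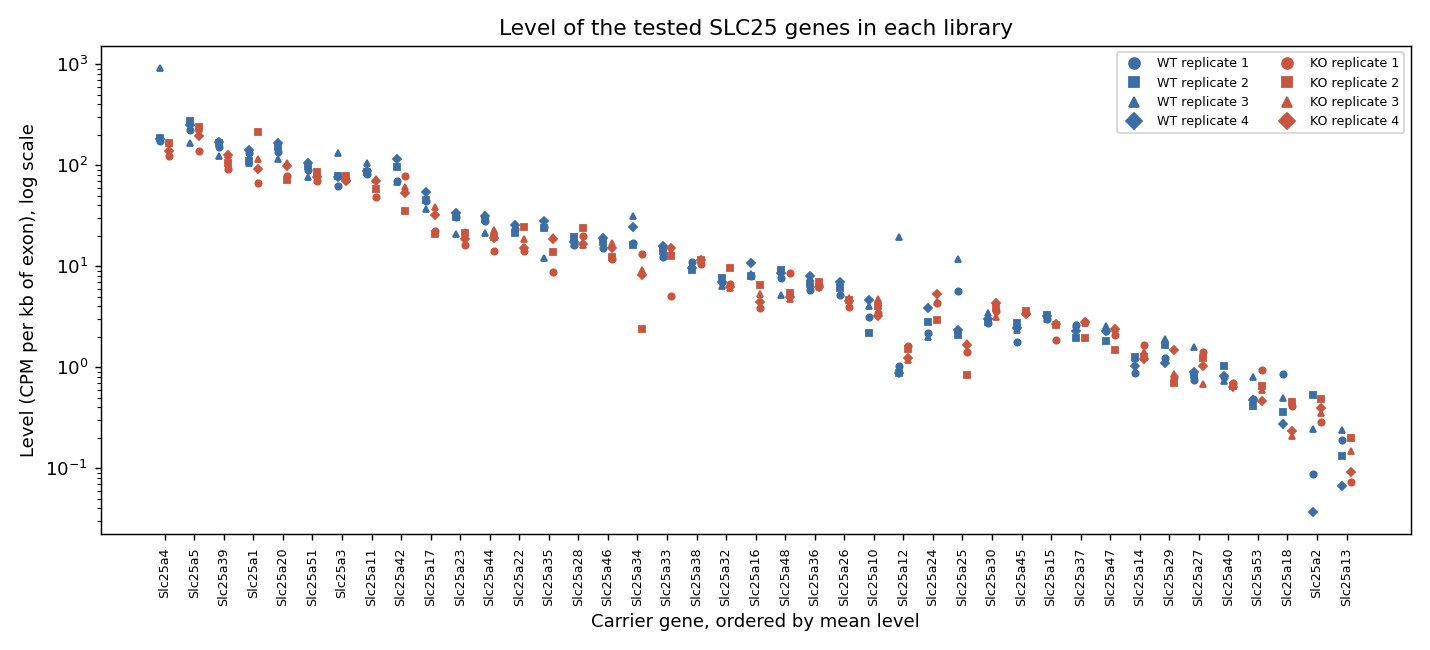
Level of 41 tested SLC25 genes in each of the 8 libraries, in CPM per kb of exon on a log axis, ordered by mean level (blue, WT; red, KO; symbol shapes, replicates 1 to 4). Slc25a4 and Slc25a12 in WT replicate 3 lie far above the other libraries, and Slc25a13 is the lowest gene.

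In all, 5 members were too low to test, and none of the 47 was at 0 in every library. Slc25a21, an oxodicarboxylate carrier, had 0 to 6 counts per library, and Slc25a41, an ATP-Mg/phosphate carrier, had 0 to 3. Slc25a43 had 0 to 15, Slc25a31, an ADP/ATP carrier known from testis, had 0 to 33, and the pseudogene Slc25a5-ps had 2 to 13. At these depths no difference between WT and KO was detectable for them.

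Across the family, carriers were mostly lower in KO, without any passing the test over 8 libraries. Of the 42 tested carriers 30 had a lower estimate in KO and 12 a higher one, against 49.5% and 50.5% of all 13901 tested genes. Their median log2 fold change was -0.31, where that of all genes was 0.00. None of the 42 passed an adjusted p of 0.05 in edgeR's quasi-likelihood test, as none of all genes did (0%). At an unadjusted p under 0.05, 14 were lower (33.3%, against 11.1% of all genes) and 3 higher (7.14%, against 10.4%). DESeq2 called 9 of the 38 members it gave an adjusted p lower (4.71% of all genes) and Slc25a45 higher (4%), and limma-voom with sample weights called 5 lower (3.76%) and 0 higher (3.08%). The 9 were Slc25a11, Slc25a16, Slc25a17, Slc25a20, Slc25a23, Slc25a25, Slc25a26, Slc25a34 and Slc25a44; limma-voom shared 4 of them and added Slc25a48. Without WT replicate 3 and KO replicate 2, edgeR's quasi-likelihood test called 3 lower (1.5% of all genes) and 0 higher (1.82%), out of 30 with lower estimates (48.9% of all genes) and 12 with higher ones (51.1%). At an unadjusted p under 0.05 these 6 libraries gave 17 lower carriers (11.4% of all genes) and 4 higher (11.7%). In the 6 libraries these 3, Slc25a16, Slc25a20 and Slc25a23, fell.

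The split depends on how the libraries are scaled. With TMM, the scaling used throughout, the split was 30 lower to 12 higher; with total library size alone it was 23 to 19 and the median -0.06, while the all-gene median shifted to 0.26. Measured from the median of all genes, the family's median lay at -0.31 with TMM and at -0.33 with library size, and 30 carriers lay below that median in both. The brown adipocyte marker sums given above lay below every WT library in all KO libraries. The general adipocyte marker sums did so in all except KO replicate 3. In WT most of the brown adipocyte sum was Ucp1, at 5082 to 6576 CPM, against 1792 to 4301 CPM in KO. Of the 10 brown adipocyte markers 9 had lower estimates, but only 2, Ucp1 and Elovl3, had every KO library below every WT library (7.56% of all genes). The median log2 fold change of the 10 was -0.29, from -1.26 for Elovl3 to 0.34 for Prdm16. Cidea, Cox8b and Dio2 had the lower estimates nearest 0, -0.09, -0.10 and -0.15, and Dio2 ran from 19.1 to 303 CPM in KO. Of the 10 general adipocyte markers 9 had lower estimates, at a median of -0.45. In 3 of them every KO library lay below every WT library (7.56% of all genes). The part of either marker list in the carriers' lower level was not tested.

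**Figure D2:**
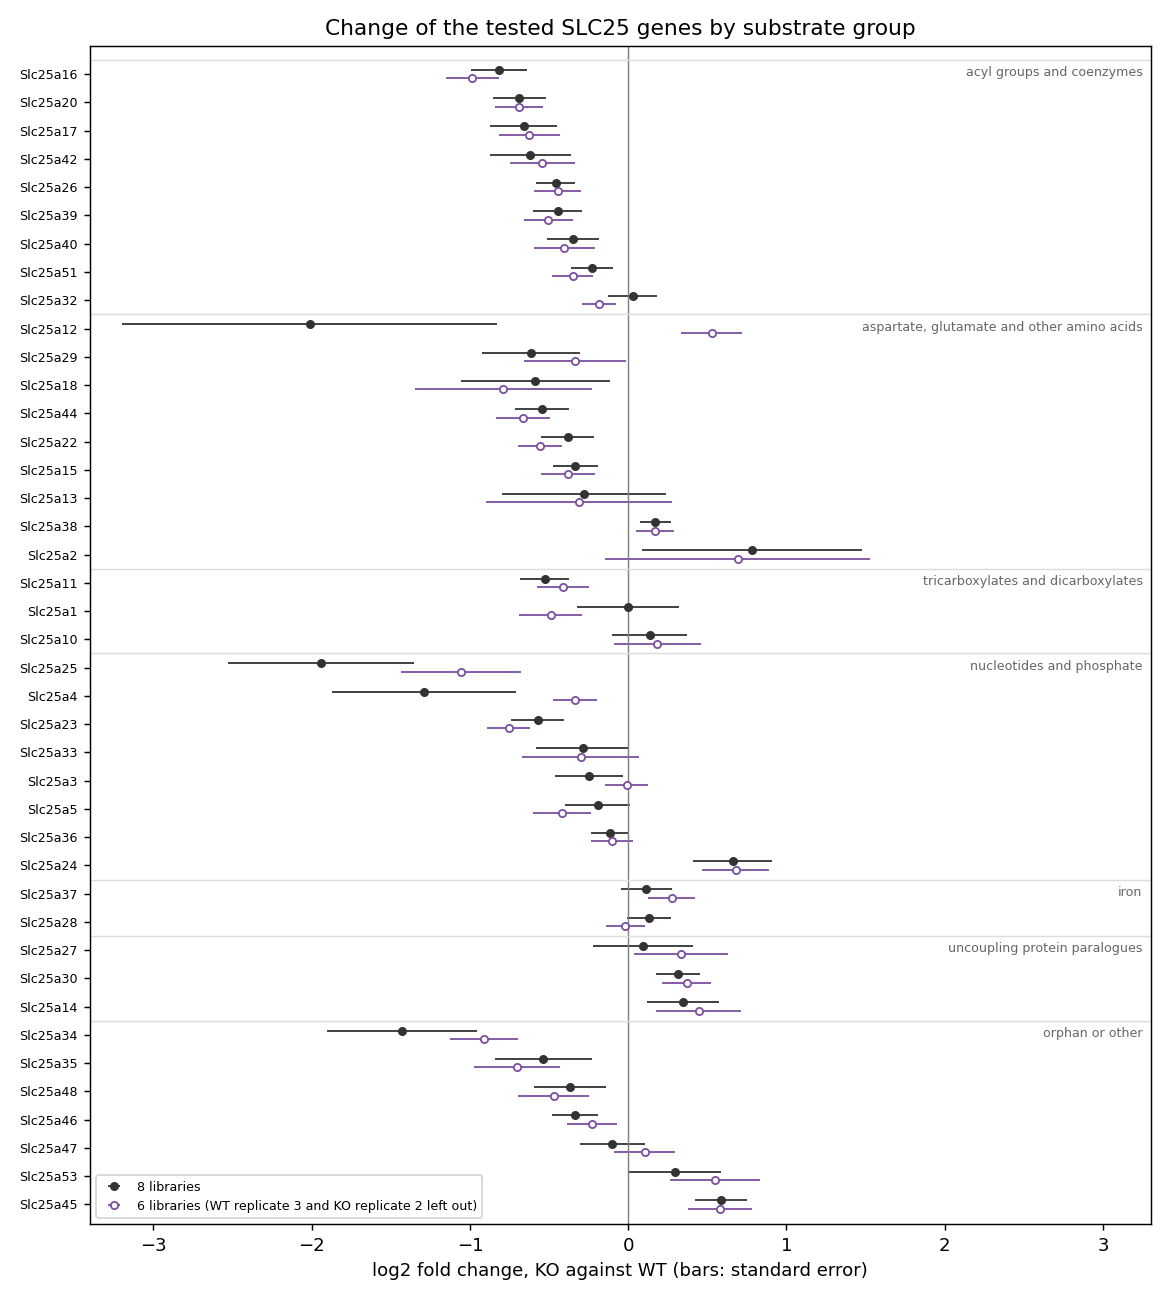
Log2 fold change, KO against WT, of 41 tested carriers by substrate group, with its standard error as a bar (filled black, all 8 libraries; open purple, 6 libraries without WT replicate 3 and KO replicate 2). Of the 41, 29 lie left of 0 with 8 libraries, and Slc25a12 lies left of 0 with 8 libraries and right of it with 6.

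Summed over all members, the family stood at 5173, 5792, 6977 and 6155 CPM in WT and at 3853, 4348, 4723 and 4347 CPM in KO, means of 6024 ± 753 and 4318 ± 357 (SD, n = 4). Every KO library lay below every WT library. As a plain share of all counts, without TMM, the family took 0.471% to 0.609% in WT and 0.445% to 0.495% in KO, and these ranges overlap. With mitochondrially encoded genes left out of the total, the share was 0.632% to 0.760% in WT and 0.535% to 0.605% in KO, without overlap. Slc25a4 made up 30.9% of the family's counts in WT replicate 3 and 7.01% to 9.08% in the other 7 libraries. Without Slc25a4 and Slc25a12, the sums were 4761, 5348, 4680 and 5717 CPM in WT and 3548, 3942, 4327 and 4009 CPM in KO, still without overlap. Counted by gene, 9 of the 42 tested carriers had every KO library below every WT library (7.56% of all genes) and 1 had every KO library above (5.8%); in the 6 libraries these numbers were 17 (15.3% of all genes) and 5 (15.4%). Taken library by library, the median log2 deviation from the WT mean was -0.35, -0.25, -0.18 and -0.24 in KO replicates 1 to 4, and -0.08, -0.01, 0.04 and 0.09 in WT replicates 1 to 4. KO replicate 1 was the lowest of the 8.

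**Figure D3:**
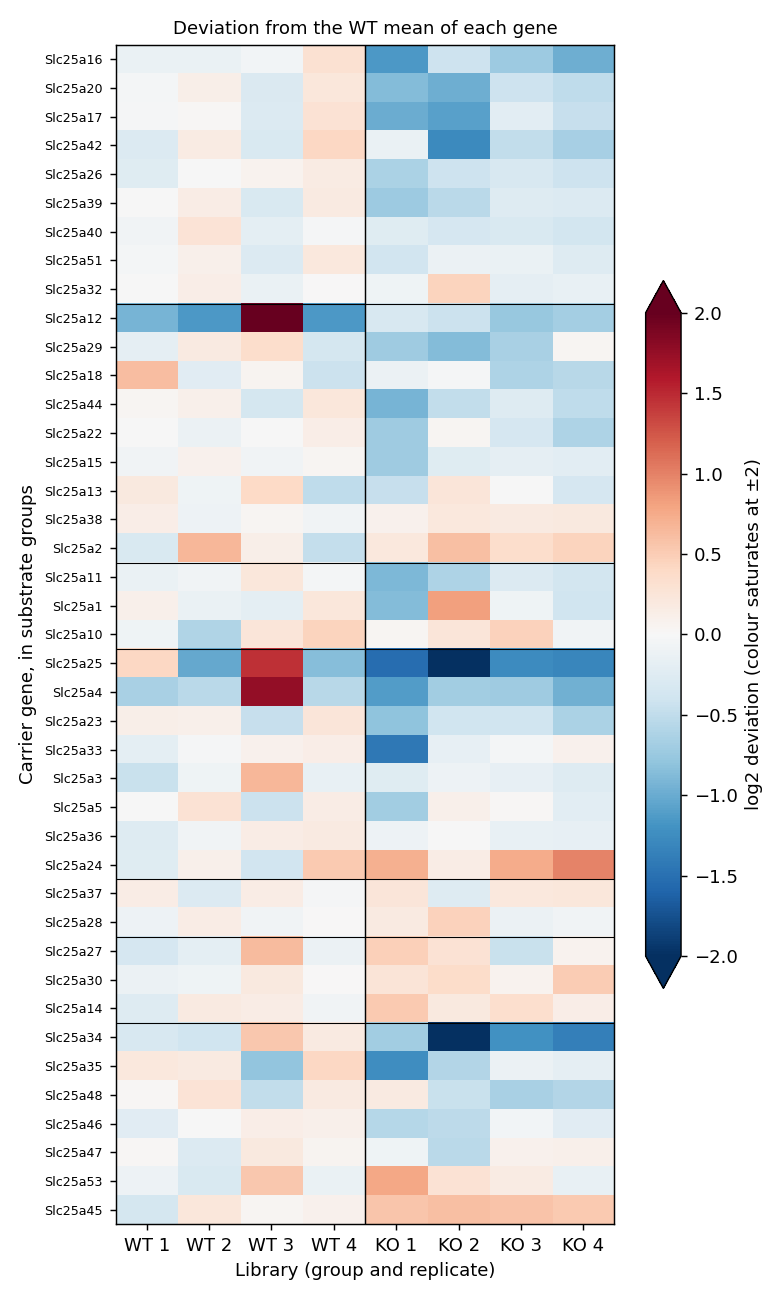
Log2 deviation of 41 tested carriers (rows, in substrate groups) from the mean of each over the 4 WT libraries, in each library (columns); blue is below and red above, and colour saturates at 2 in either direction. Between 26 and 30 of the 41 carriers lie below the WT mean in each KO library, against 15 to 30 in the WT libraries.

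Carriers of acyl groups and coenzymes lay mostly lower. Of the 10 tested, 9 had a lower estimate in KO (7 with library size alone), with a median log2 fold change of -0.45; 6 were lower at an unadjusted p under 0.05 (11.1% of all genes), and in 4 every KO library lay below every WT library (7.56% of all genes). In the 6 libraries all 10 were on the lower side and 2 fell (1.5% of all genes).

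Slc25a20 (ENSMUSG00000032602) brings long acylcarnitines into the matrix for oxidation in exchange for free carnitine. It lay at 663, 739, 557 and 797 CPM in WT and at 375, 347, 509.9 and 478 CPM in KO. Every KO library was below the lowest WT library, WT replicate 3. The means were 689 ± 104 and 427 ± 78.8 CPM, a log2 fold change of -0.69 ± 0.17 (edgeR adjusted p = 0.103; -0.69 ± 0.15 and 0.0461 in the 6 libraries).

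Slc25a16 (ENSMUSG00000071253) is linked to coenzyme A in mitochondria by work on its yeast relative. Its values were 38.4, 38.4, 40.6 and 51.8 CPM in WT and 18.6, 31.2, 25.3 and 21.1 CPM in KO. The groups did not overlap, and WT replicate 4 was the highest. With means of 42.3 ± 6.44 and 24.1 ± 5.52 CPM, it had a log2 fold change of -0.81 ± 0.18 and the smallest edgeR adjusted p of the family, 0.0981. In the 6 libraries it was -0.98 ± 0.17 (adjusted p = 0.0316), and without KO replicate 2 alone it was -0.96 (adjusted p = 0.0322), the only carrier then called, of 0.877% of all genes called lower and 1.7% called higher.

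Slc25a42 transports coenzyme A across the inner membrane, and Slc25a17 carries coenzyme A, FAD and NAD in the membrane of peroxisomes. Slc25a42 lay at 423, 573, 414 and 685 CPM in WT and 468, 211, 364 and 322 CPM in KO, with KO replicate 2 the lowest and KO replicate 1 inside the WT range (log2 fold change -0.62 ± 0.25, edgeR adjusted p = 0.207). Slc25a17 lay at 125, 129, 105 and 156 CPM in WT and 64.0, 59.5, 109.9 and 91.9 CPM in KO, where KO replicate 3 lay just above WT replicate 3 (log2 fold change -0.66 ± 0.21, edgeR adjusted p = 0.149). The peroxisomal and the mitochondrial carrier had estimates within one standard error of each other.

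Slc25a26 imports S-adenosylmethionine, the methyl donor. Its 24.97, 29.5, 31.0 and 33.3 CPM in WT and 18.9, 22.1, 23.5 and 22.01 CPM in KO did not overlap, at a log2 fold change of -0.46 ± 0.12 (edgeR adjusted p = 0.118). Slc25a39, which imports glutathione, lay at 413, 462, 337 and 471 CPM in WT and 252, 288, 351 and 346 CPM in KO; WT replicate 3 lay among the KO values (log2 fold change -0.45 ± 0.16, edgeR adjusted p = 0.167). Its paralogue Slc25a40 was far less abundant, at 7.04 ± 1.07 against 5.53 ± 0.227 CPM, and its libraries did not overlap (-0.35 ± 0.17 on the log2 scale, edgeR adjusted p = 0.252).

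Slc25a51, the NAD carrier, was among the most abundant of the family. It was at 495, 544, 417 and 585 CPM in WT and 389, 468, 460.3 and 423 CPM in KO, overlapping through WT replicate 3 (log2 fold change -0.23 ± 0.13, edgeR adjusted p = 0.330). Its estimate turns positive when libraries are scaled by total size alone. The folate and FAD carrier Slc25a32 had a log2 fold change of 0.03 ± 0.15 (edgeR adjusted p = 0.930).

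**Figure D4:**
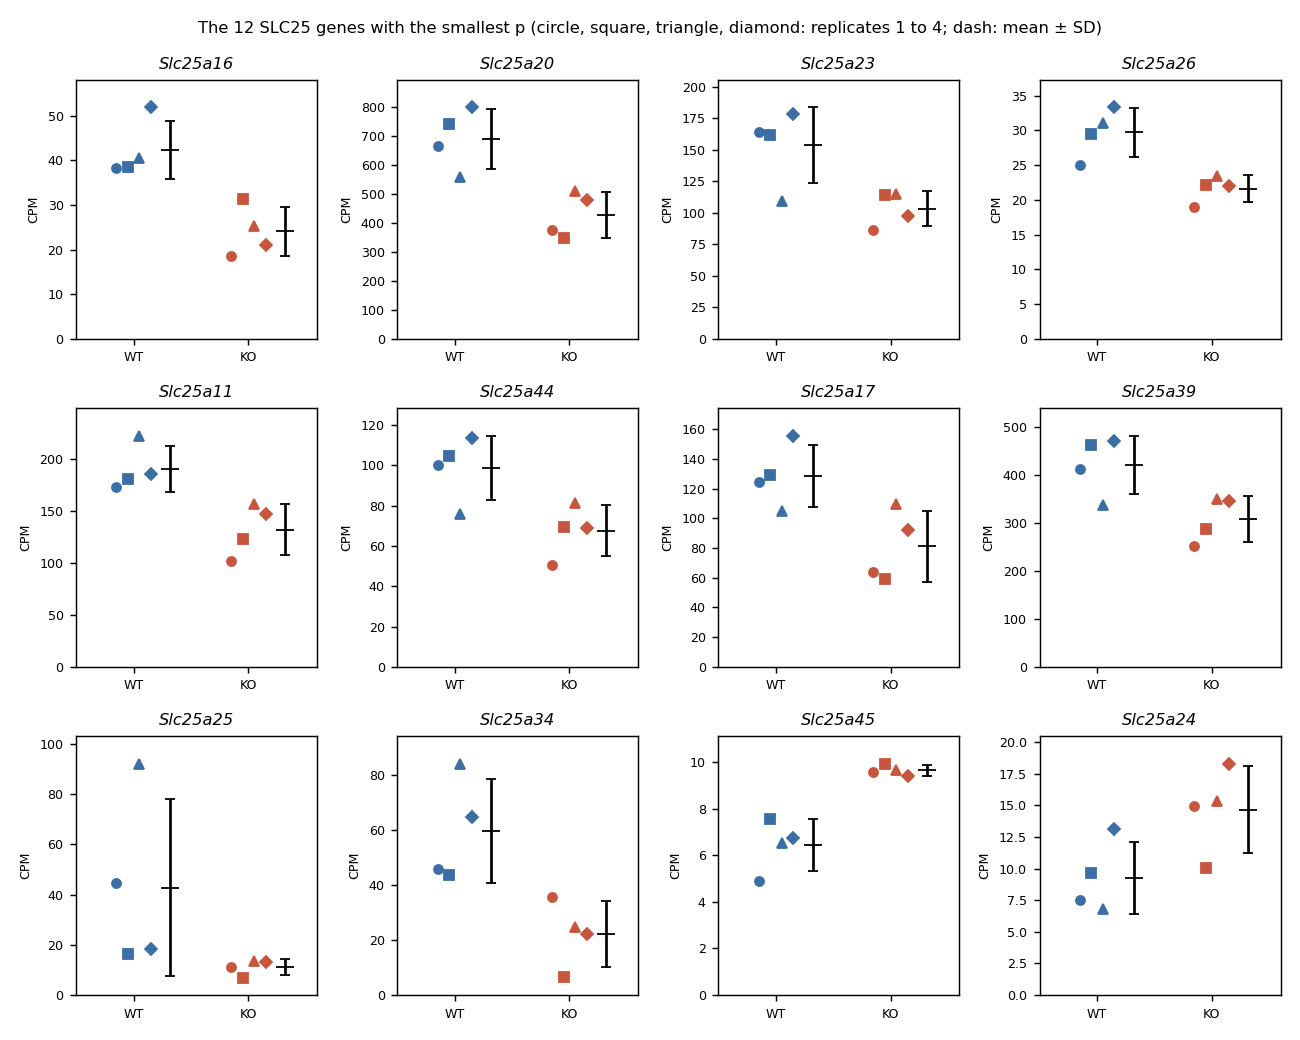
CPM in each library of the 12 carriers with the smallest p (blue, WT; red, KO; circle, square, triangle and diamond, replicates 1 to 4), with the mean and SD of each group of 4 beside the points; each axis starts at 0. In KO 10 carriers have lower means, and Slc25a45 and Slc25a24 have higher ones.

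Of the enzymes that work with these carriers on acylcarnitines, 3 of 4 lay lower and none passed the test. Crat, carnitine acetyltransferase, averaged 1089.5 ± 47.2 CPM in WT against 725 ± 99.3 CPM in KO (log2 fold change -0.59 ± 0.13, edgeR adjusted p = 0.0981). Cpt2, which returns the acyl group to coenzyme A inside the matrix, averaged 460.3 ± 35.0 and 296 ± 67.9 CPM (log2 fold change -0.64 ± 0.17, adjusted p = 0.117). For these 2 of the 4 every KO library lay below every WT library (7.56% of all genes). Cpt1b and Cpt1a, the outer-membrane enzymes of muscle and liver type, had log2 fold changes of -0.47 ± 0.22 and 0.12 ± 0.11.

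Of the 9 tested amino acid carriers 7 had lower estimates, at a median log2 fold change of -0.38. The count was 7 with library size alone, at a median of -0.13, and 6 in the 6 libraries, at a median of -0.34. Slc25a44 (ENSMUSG00000050144) carries branched-chain amino acids into mitochondria and is known for its role in brown fat during cold. It lay at 100.2, 105, 76.0 and 114 CPM in WT and 50.7, 69.4, 81.4 and 68.9 CPM in KO. Only WT replicate 3 lay within the KO values. It differed by -0.55 ± 0.17 on the log2 scale (edgeR adjusted p = 0.143), and in the 6 libraries, which did not overlap, -0.66 ± 0.17 (adjusted p = 0.0637).

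All 6 listed enzymes of branched-chain amino acid breakdown also lay lower (5 with library size alone), none past the test in 8 libraries. Bckdha, a subunit of the branched-chain ketoacid dehydrogenase, averaged 124 ± 19.1 CPM in WT against 53.6 ± 19.6 CPM in KO, with a log2 fold change of -1.21 ± 0.26 (edgeR adjusted p = 0.0981); in the 6 libraries it fell, with a log2 fold change of -1.48 (adjusted p = 0.0329). Bcat2, the mitochondrial transaminase that acts first, had -0.54 ± 0.13 (adjusted p = 0.105), and Dbt and Bckdhb, 2 further subunits, had -0.46 ± 0.16 and -0.33 ± 0.13. Ppm1k, the phosphatase that activates the complex, differed least at -0.10 ± 0.20.

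The aspartate-glutamate carriers Slc25a12 and Slc25a13 serve the malate-aspartate shuttle and sense calcium on their cytosolic side. Slc25a12, the form of muscle and brain, lay at 7.62, 6.45, 144 and 6.51 CPM in WT and 11.8, 11.02, 8.69 and 9.14 CPM in KO. One library, WT replicate 3, was far above all others. The log2 fold change of -2.01 ± 1.19 (edgeR adjusted p = 0.351) turned to 0.57 without that library and to 0.53 ± 0.19 in the 6 libraries (adjusted p = 0.143), in which every KO library was above every WT library. Slc25a13, the form of liver, was barely present, at 0.720, 0.501, 0.904 and 0.251 CPM in WT and 0.277, 0.760, 0.561 and 0.345 CPM in KO, with overlapping groups (log2 fold change -0.28 ± 0.52, edgeR adjusted p = 0.774). Of the shuttle enzymes, all 4 of which had lower estimates over 8 libraries and 3 over 6, Got1 had a log2 fold change of -2.02 ± 1.05 over 8 libraries and 0.05 over 6, and Got2 of -1.25 ± 0.47 and -0.55. The value of Got2 in the 6 libraries had an edgeR adjusted p of 0.0504. Mdh2 and Mdh1 had -0.45 ± 0.13 and -0.60 ± 0.20 over 8 libraries (edgeR adjusted p = 0.134 and 0.156). For 3 of the 4, Got2, Mdh2 and Mdh1, every KO library lay below every WT library (7.56% of all genes). The muscle markers, Slc25a12, Got1 and Got2 were all highest in WT replicate 3. WT replicate 4, with a muscle marker sum of 373 CPM, had Slc25a12 at 6.51 CPM and Got2 at 53.4 CPM. The part of muscle transcripts in these values was not tested.

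The other amino acid carriers had lower levels or smaller differences. Slc25a22, a glutamate carrier, averaged 141 ± 10.6 and 108 ± 26.9 CPM (log2 fold change -0.38 ± 0.17, edgeR adjusted p = 0.229), and its relative Slc25a18 stayed below 2 CPM (-0.59 ± 0.47). Slc25a15, an ornithine carrier, averaged 17.6 ± 0.949 and 13.9 ± 2.26 CPM without overlap (-0.33 ± 0.14, adjusted p = 0.223). Slc25a29, which carries basic amino acids, had -0.61 ± 0.31. Slc25a38, the glycine carrier of haem synthesis, and Slc25a2, a second ornithine carrier at under 1 CPM, lay on the higher side at 0.17 ± 0.10 and 0.78 ± 0.69.

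Among the carriers of tricarboxylates and dicarboxylates, 2 of the 3 tested had lower estimates (1 with library size alone and 1 without mitochondrially encoded genes), and Slc25a11 was the one with separate groups. It exchanges 2-oxoglutarate for malate in the malate-aspartate shuttle. Its values were 173, 181, 223 and 185 CPM in WT and 102, 124, 157 and 147 CPM in KO, with no overlap (log2 fold change -0.53 ± 0.15, edgeR adjusted p = 0.131). Exons of Rnf167 on the opposite strand cover 8.92% of its exon bases, and whether counting used the strand is not given.

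Slc25a1 (ENSMUSG00000003528), which exports citrate for fatty acid synthesis, lay at 283, 239, 228 and 308 CPM in WT and 143, 466, 248 and 199.7 CPM in KO. KO replicate 2 was the highest of all 8 and the other 3 KO libraries lay between 143 and 248 CPM. The log2 fold change was -0.00 ± 0.32 over all libraries (edgeR adjusted p = 0.999), -0.43 without KO replicate 2 and -0.49 ± 0.20 in the 6 libraries (adjusted p = 0.179). Slc25a10, which exchanges malate or succinate for phosphate, lay at 10.9, 7.55, 13.9 and 16.2 CPM in WT and 12.0, 13.9, 16.3 and 11.1 CPM in KO, overlapping (log2 fold change 0.14 ± 0.24, edgeR adjusted p = 0.759).

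Of the 5 enzymes around citrate 4 had lower estimates, 3 with library size alone and 5 in the 6 libraries. Cs, citrate synthase, and Aco1, the cytosolic aconitase, had -0.43 ± 0.15 and -0.42 ± 0.18, and Acly, which splits exported citrate, had 0.06 ± 0.43 over 8 libraries and -0.53 over 6.

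Of the 8 tested carriers of nucleotides and phosphate 7 had lower estimates, at a median log2 fold change of -0.27 (4 with library size alone, median -0.01). The calcium-regulated ATP-Mg/phosphate carriers, which adjust the adenine nucleotide pool of the matrix, differed in direction. Slc25a25 (ENSMUSG00000026819) lay at 44.5, 16.2, 92.2 and 18.3 CPM in WT and 11.2, 6.57, 13.6 and 13.2 CPM in KO. Although no KO library reached the lowest WT library, the WT libraries themselves spread widely, with replicates 1 and 3 far above replicates 2 and 4. Its log2 fold change of -1.94 ± 0.59 (edgeR adjusted p = 0.150) was -1.24 without WT replicate 3 and -1.06 ± 0.38 in the 6 libraries (adjusted p = 0.158). Of its 3 promoter windows in RefSeq, the one shown above holds TGACGTCA and the other two do not.

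Slc25a23 (ENSMUSG00000046329), a relative of the same substrate, lay at 164, 162, 109 and 178 CPM in WT and 85.9, 114, 115 and 97.4 CPM in KO. WT replicate 3 was the only WT library within the KO range. Its log2 fold change was -0.57 ± 0.17 (edgeR adjusted p = 0.132), and in the 6 libraries it fell, with -0.76 ± 0.13 (adjusted p = 0.0334), with no overlap. Slc25a24, the third of these carriers, lay on the other side of 0, at 7.53, 9.62, 6.76 and 13.2 CPM in WT and 15.0, 10.01, 15.3 and 18.3 CPM in KO. WT replicate 4 exceeded KO replicate 2, and the log2 fold change was 0.66 ± 0.25 (edgeR adjusted p = 0.187).

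Slc25a4 (ENSMUSG00000031633), the ADP/ATP carrier of muscle and heart, lay at 405, 438, 2153 and 432 CPM in WT and 292, 395, 387 and 329 CPM in KO. Every KO library was below every WT library, yet the lowest WT value was 405 CPM and the highest KO value 395 CPM, while WT replicate 3 was several times higher than all. The log2 fold change of -1.29 ± 0.58 (edgeR adjusted p = 0.242) was -0.28 without WT replicate 3, the library with the muscle markers, whose part was not tested. Slc25a5, the ADP/ATP carrier of dividing and many other cells, lay at 368, 450.0, 274 and 408 CPM in WT and 227, 394, 373 and 318 CPM in KO, with overlap (log2 fold change -0.19 ± 0.20, edgeR adjusted p = 0.598). Its estimate was -0.056 without KO replicate 1, -0.093 without WT replicate 2, -0.32 without WT replicate 3, -0.29 without KO replicate 2 and -0.42 in the 6 libraries. Of its 50-base stretches 33.8% also occur in other annotated genes, most of them in Gm5560, so its count is uncertain.

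Slc25a3, the phosphate carrier that supplies ATP synthase, lay at 342, 439, 731 and 420.3 CPM in WT and 393, 433, 412 and 388 CPM in KO. WT replicate 3 was again the highest, and the KO values lay among the remaining WT values. Over 8 libraries the log2 fold change was -0.25 ± 0.21 (edgeR adjusted p = 0.509) and 0.02 without WT replicate 3. The pyrimidine nucleotide carriers Slc25a33 and Slc25a36 had -0.29 ± 0.29 and -0.12 ± 0.12; exons of Gm13068 on the opposite strand cover 14.9% of Slc25a33.

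Subunits of ATP synthase and its inhibitor, the partners of the ADP/ATP and phosphate carriers, gave 11 of 15 lower estimates, at a median of -0.18, and 7 of 15 with library size alone, at a median of 0.07; in the 6 libraries 9 of 15 were lower, at a median of -0.10. Atp5b and Atp5a1, the catalytic and the alpha subunit of its head, had -0.48 ± 0.14 and -0.39 ± 0.14 (edgeR adjusted p = 0.131 and 0.167), both without overlap. Of the 15, 3 lay lower without overlap (7.56% of all genes). Atp5c1, the central stalk, had -0.41 ± 0.14, and Atp5g2, a gene of the ring subunit, -0.34 ± 0.16.

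The 2 iron importers of mitochondria stood on the other side of 0 from most carriers. Slc25a28, mitoferrin-2, lay at 61.0, 72.5, 62.1 and 65.8 CPM in WT and 74.2, 89.5, 60.2 and 62.4 CPM in KO. Slc25a37, mitoferrin-1, the form of red cell precursors, lay at 15.7, 11.7, 15.7 and 13.9 CPM in WT and 16.8, 11.8, 16.4 and 16.7 CPM in KO. Both sets overlap, and the log2 fold changes were 0.13 ± 0.14 and 0.12 ± 0.16 (edgeR adjusted p = 0.603 and 0.697); the estimate for Slc25a28 was -0.02 in the 6 libraries. Erythroid markers summed to 388 to 916 CPM in WT and 480 to 993 CPM in KO.

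All 9 listed genes of iron handling, iron-sulfur clusters and haem synthesis had lower estimates, 8 of them with library size alone, and none passed the test over 8 libraries. Nfs1, which supplies sulfur for iron-sulfur clusters, and Iscu, their scaffold, had -0.66 ± 0.15 and -0.45 ± 0.12 (edgeR adjusted p = 0.0981 and 0.113). Fech, which places iron into haem, had -0.69 ± 0.16, and Alas1, which starts haem synthesis, -0.87 ± 0.21. These 4 have the smallest p of the 9, and none of them had overlap between WT and KO. Of all 9 listed genes 5 lay lower without overlap (7.56% of all genes). In the 6 libraries Fech and Alas1 fell, with log2 estimates of -0.58 (edgeR adjusted p = 0.0449) and -1.04 (edgeR adjusted p = 0.0422). Of all genes 1.5% were called lower there.

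Slc25a14, Slc25a27 and Slc25a30, paralogues of the uncoupling proteins, all had higher estimates in KO, of 0.35 ± 0.23, 0.09 ± 0.31 and 0.31 ± 0.14 on the log2 scale, none past the test (edgeR adjusted p = 0.385, 0.884 and 0.231). They were low, at group means between 2.60 and 17.0 CPM. The uncoupling proteins themselves differed among one another: Ucp1 averaged 5983 ± 645 CPM in WT against 3258 ± 1158 CPM in KO (-0.88 ± 0.25, edgeR adjusted p = 0.131), Ucp3 had -0.61 ± 0.19 and Ucp2 0.66 ± 0.22.

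The last group, orphan carriers and others, had 5 of 7 lower estimates at a median log2 fold change of -0.33. With library size alone 4 were lower, and in the 6 libraries also 4, at a median of -0.23. Of the carriers without a role stated here, Slc25a34 (ENSMUSG00000040740) differed most. It lay at 45.8, 43.6, 84.1 and 64.8 CPM in WT and 35.4, 6.41, 24.6 and 22.1 CPM in KO. The groups did not overlap, and KO replicate 2 was far below the other KO libraries. Its log2 fold change was -1.43 ± 0.47 (edgeR adjusted p = 0.163), and -0.91 ± 0.21 in the 6 libraries (adjusted p = 0.0535). Its promoter window above holds the reverse complement of AAGGTCA.

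Slc25a45 was the single carrier with every KO library above every WT library, at 4.89, 7.55, 6.53 and 6.76 CPM in WT and 9.59, 9.94, 9.68 and 9.39 CPM in KO. The KO values lay closer together than the WT values. On the log2 scale the difference was 0.58 ± 0.17 (edgeR adjusted p = 0.126; 0.58 ± 0.20 and 0.131 in the 6 libraries). Slc25a47, known from liver, lay at 6.75, 5.39, 7.70 and 6.88 CPM in WT and 6.25, 4.42, 7.11 and 7.12 CPM in KO, overlapping (-0.10 ± 0.21, edgeR adjusted p = 0.796).

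Slc25a46, an outer-membrane protein that shapes mitochondria, had -0.33 ± 0.15 on the log2 scale, and Slc25a48 and Slc25a53 had -0.37 ± 0.23 and 0.30 ± 0.29. Slc25a35 had -0.54 ± 0.31, with 80.9 ± 25.4 CPM in WT and 55.8 ± 17.9 CPM in KO, but exons of Rangrf on the opposite strand cover 31.3% of its exon bases, so its count may hold reads of both genes.

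Ratios of counts within a library do not depend on how libraries are scaled, and 8 pairs of carriers with a shared substrate or pathway were compared in this way. No pair passed an exact two-sided permutation test over the 8 libraries, for which the smallest p possible is 0.0286. The ratio of Slc25a4 to Slc25a5 was 1.10, 0.973, 7.86 and 1.06 in WT and 1.29, 1.00, 1.04 and 1.03 in KO. Apart from WT replicate 3, these counts were nearly equal in both groups (mean log2 difference, KO minus WT, -0.67, exact p = 0.657, adjusted p = 0.990; 0.06 without WT replicate 3). The ratio of Slc25a12 to Slc25a13 was 10.4, 12.5, 156 and 24.7 in WT and 41.1, 14.3, 15.1 and 25.6 in KO, again with WT replicate 3 highest (log2 difference -0.28, exact p = 0.886, adjusted p = 1; 0.57 without WT replicate 3).

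Slc25a10 to Slc25a11 came nearest to separating, at 0.0631, 0.0417, 0.0624 and 0.0872 in WT and 0.118, 0.113, 0.104 and 0.0754 in KO. In KO 3 libraries lay above all WT libraries, and KO replicate 4 lay within the WT range (log2 difference 0.72, exact permutation p = 0.0571, adjusted over the 8 pairs 0.457). For Slc25a39 to Slc25a40, counts stood at 61.9, 53.9, 55.5 and 68.3 in WT and 43.1, 52.9, 62.9 and 65.2 in KO, with overlapping ranges. Slc25a25 to Slc25a23 had a log2 difference of -1.07 (exact permutation p = 0.286), which was -0.43 without WT replicate 3 and -0.14 in the 6 libraries. The remaining 3 pairs, of the mitoferrins, the pyrimidine carriers and the glutamate carriers, had adjusted p of 0.990 to 1, and KO replicate 1 had the lowest ratio of Slc25a33 to Slc25a36, 0.156 against 0.387 to 0.418 in WT.

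**Figure D5:**
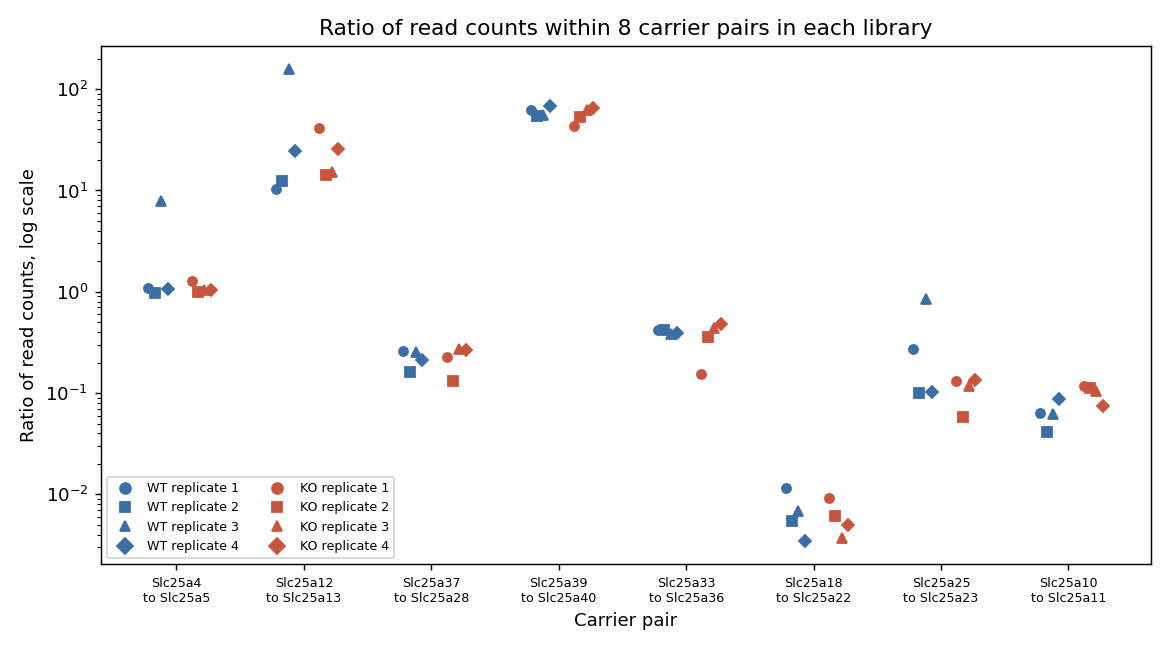
Ratio of read counts within 8 carrier pairs in each library, on a log axis (blue, WT; red, KO; shapes, replicates 1 to 4). In WT replicate 3 the ratio of Slc25a4 to Slc25a5 is 7.86 and lies between 0.973 and 1.29 in the other libraries, and for Slc25a10 to Slc25a11 3 KO libraries lie above all WT libraries.

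Mitochondrial transporters left out by the symbol rule also lay mostly lower. They include the carriers' relatives Ucp1, Ucp2 and Ucp3, and also Mtch1 and Mtch2. Of these transporters 20 of 23 had lower estimates (17 with library size alone), at a median log2 fold change of -0.41. None passed the test over 8 libraries. At an unadjusted p under 0.05, 12 were lower (11.1% of all genes) and Ucp2 was higher (10.4%). Sfxn1, a serine transporter of the inner membrane, had -0.49 ± 0.11 (edgeR adjusted p = 0.0981) and Sfxn5 -0.57 ± 0.16. The libraries of WT and KO did not overlap for either, and 9 of the 23 lay lower without overlap (7.56% of all genes). In the 6 libraries Sfxn1, Ucp3 and Mpc1 fell, with log2 estimates of -0.56, -0.64 and -0.87 (adjusted p = 0.0414, 0.0454 and 0.0419), and Sfxn3 rose, with 0.67 (adjusted p = 0.0335). Of all genes 1.5% were called lower and 1.82% higher in the 6 libraries. Mpc1 is a subunit of the pyruvate carrier. Whether the carriers differ from these transporters was not tested.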

How the data were processed

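Polyadenylated RNA of 4 WT and 4 KO adipose samples was sequenced. The authors deposited raw read counts per gene. The build is GRCm39, per the submitters' processing notes. Aligner, counter and strand setting: not given in the sources used here. Symbols and exon lengths came from GENCODE M21 (18321 of 18395 genes matched; 206 were at 0 in every library). Counts were scaled by TMM, low genes were filtered by edgeR's default by group (13901 kept), and WT and KO were compared with edgeR 4.0.16's robust quasi-likelihood test, Benjamini-Hochberg adjusted over all genes tested, at 0.05. Values are TMM-scaled CPM, given as mean ± SD (n = 4) or log2 fold change ± SE. This SE was worked back from edgeR's test, as the size of the log2 fold change divided by the square root of the F value. DESeq2 1.42.0, limma 3.58.1 (voom with sample weights), other scalings, filters, a replicate block and omission of each library were alternatives. Pair ratios (prior count 0.5) used exact permutation tests (scipy 1.17.1). The edgeR step was tested on simulated data. Members named with full values are the 12 with the smallest p, the 6 most abundant and those of known role; others are given by fold change; 1 carrier and 1 partner gene enter the counts but, like their points in the figures, are not reported here. The members, substrate groups and partner and marker lists were chosen with earlier results of these data known. Counts of 33672272 to 43253559 per library limit precision for the low carriers.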

Additional observations from a re-analysis of the deposited data

Results flagged for a closer look

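Of 66 groups of 4 libraries examined, 7 held a library whose gap to the nearest of the others exceeded Dixon's 95% limit as a share of the group's range; chance gives about 1 in 20. In WT, Slc25a4 was at 2153 CPM in replicate 3 against 405 to 438 CPM in the other replicates, and Slc25a12 at 144 CPM against 6.45 to 7.62 CPM. The log2 ratio of Slc25a4 to Slc25a5 was 2.98 in the same library. That library also held the 15 skeletal muscle markers at a summed 49294 CPM, against at most 373 CPM elsewhere, with Acta1 at 11195 CPM; the part of this in the values was not tested. Slc25a16 was at 51.8 CPM in WT replicate 4, against 38.4 to 40.6 CPM in the others. In KO, Slc25a37 was at 11.8 CPM in replicate 2, the log2 ratio of Slc25a4 to Slc25a5 was 0.36 in replicate 1, and that of Slc25a25 to Slc25a23 was -4.11 in replicate 2.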

How the results depend on the processing

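Of 42 carriers 30 lay lower; library size alone gave 23, no filter 33 of 47, a filter of 1 CPM in 4 libraries 27 of 39, DESeq2 27 of 38, removal of mitochondrially encoded genes 29 of 42, other settings 30 of 42, and omission of single libraries 29 to 31. Carriers called lower numbered 0 with 8 libraries, 9 with DESeq2 (4.71% of all genes), 5 with limma-voom (3.76%), 3 with 6 libraries (1.5%) and 0 to 1 with single libraries left out. Carriers called higher numbered 0, but 3 of 42 with library size alone (858 of all 13901 genes) and 1 with DESeq2 (4% of all genes), and 0 to 0 without single libraries. Over all genes edgeR called 0, library size alone 882 (24 lower and 858 higher), DESeq2 1113, limma-voom 951, 6 libraries 461 and omission of KO replicate 2 alone 361. The median was -0.062 with library size alone and -0.36 to -0.23 without single libraries (-0.23 without KO replicate 1). Carriers with separate groups numbered 9 lower and 1 higher (7.56% and 5.8% of all genes), 3 and 4 with library size alone (1.17% and 19.7%), 17 and 5 with 6 libraries (15.3% and 15.4%), and 9 to 15 and 2 to 3 without single libraries (8.31% to 11.3% and 6.92% to 12.0%). The summed level differed by -1707 CPM, by -784 CPM with library size alone and by -2018 to -1420 CPM without single libraries.

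The replicate block, which treats same-numbered samples as pairs, gave 0 calls, 30 of 42 lower and a median of -0.30. The labels do not say whether the numbers pair the samples. Correlations of deviations were -0.05, 0.04, -0.13 and 0.22 for same-numbered libraries and -0.30 to 0.16 for the others. With 4 libraries per group these values cannot decide it.

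With 6 libraries the sign of 3 pair ratios turned, to 0.10 for Slc25a4 to Slc25a5, 0.77 for Slc25a12 to Slc25a13 and 0.30 for Slc25a37 to Slc25a28. Without single libraries these ran from -0.95 to 0.057, -0.74 to 0.57 and -0.15 to 0.23, and Slc25a39 to Slc25a40 from -0.19 to 0.011, Slc25a33 to Slc25a36 from -0.47 to 0.069, Slc25a18 to Slc25a22 from -0.41 to 0.17. Of 24 carriers named with full values, 16 kept their sign throughout. With library size alone Slc25a51 turned to 0.023, Slc25a3 to 0.019, Slc25a1 to 0.25, Slc25a5 to 0.052 and Slc25a47 to 0.16. Slc25a1 was 0.0090 with a filter of 1 CPM in 4 libraries and 0.012 without mitochondrially encoded genes. With limma-voom Slc25a12 was 0.027, Slc25a28 -0.052 and Slc25a47 0.073; with 6 libraries 0.53, -0.018 and 0.11. Without single libraries Slc25a1 ran from -0.43 to 0.20, Slc25a3 from -0.38 to 0.020, Slc25a10 from -0.035 to 0.31, Slc25a12 from -2.37 to 0.57 and Slc25a47 from -0.19 to 0.031. The cause of these turns was not tested.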
